A study of Mus musculus with 87 samples.

Results

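The ETn loci of mouse chromosome 2 were followed through the 8 animals of the Chr2-cl line, in which a cluster of KRAB zinc finger protein (KRAB-ZFP) genes near the distal end of this chromosome is deleted on 0, 1 or 2 alleles. Regions with at least 10 reads per 1e6 ETn-paired reads (RPM) in any of the 87 libraries were joined within 1000 bp, which gave 5018 loci in the genome. All 261 of these loci that lie on chromosome 2 (mm9) are described here, whatever their level in the Chr2-cl animals. A locus is a cluster of uniquely mapped reads whose mates map to an ETn repeat, so it marks the flank of an element and not the point of insertion. In what follows a locus is named by its start in Mb.

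ETn elements are mouse endogenous retroviruses, bounded by long terminal repeats (LTRs), that move through an RNA copy and are still mobile. On insertion they copy a few bases of host DNA, so an intact element lies between short repeats of its target site. Inbred strains differ in many ETn insertions, and a locus that one strain has and another lacks therefore marks which strain a stretch of chromosome came from. KRAB-ZFPs are DNA-binding repressors that silence such elements in early embryos, and their genes lie in clusters that grew by duplication.

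The study screened genomic DNA by capture with RNA probes for ETn LTRs. The Chr2-cl group holds 5 KO/KO animals (C6771, C6773, C6735, C6766 and C6768), 1 KO/WT animal (C6734) and 2 WT animals (C6774 and C6736), on a background mixed from B6, 129/Sv and 129/Sv-CP. DNA came from the ear, except for C6766 and C6768, where it came from the tail. They were compared with 16 B6 libraries (14 mice and 2 ES cell lines), 13 of B6x129X1/SvJ (F1) mice and 39 of B6x129X1/SvJ (F2) mice. By their labels none of these 68 libraries carries the chromosome 2 deletion, and all of them have a Chr4-cl genotype (KO/KO, KO/WT or WT) for another KRAB-ZFP cluster, on chromosome 4. The chromosome 2 deletion was made in R1 ES cells, a line of 129 origin, and the line was founded through chimeras with a B6 host. The Chr2-cl animals come from 1 mating, the parents were not sequenced, and the labels give no ancestry for them. Each library is a separate animal or cell line, but the animals of a line are relatives, so p-values describe these families and not the strains or the genotype at large.

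The deletion lies between the sites of both guide RNAs, which are printed here because they set the interval from which every distance below is measured. Each matched chromosome 2 at 1 place. The first lies on the minus strand at chr2:174783764-174783783 and the second on the plus strand at chr2:177832883-177832903 (mm9). Capitals mark the PAM, the bases beside a site that Cas9 requires.
guide RNA 1 site: gccgttgctcagtccaaatgGGG
guide RNA 2 site: gataccagaggtggccgcaagAGG
The interval between them spans 3049140 bp and holds 49 protein-coding genes of the annotation, 45 of which have names that start with Gm. Zfp931, a zinc finger gene, and Etohi1 are the last before the distal guide site.

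The B6-type insertions at 103.83 and 129.09 Mb could be read to the base in the reference, and their junctions are printed because presence or absence of these elements is what the read counts report. A B6-type locus holds at least 100 RPM in every B6 library and less than 10 RPM in at least 1 F1 or F2 library. The sequences are the plus strand of mm9, and capitals mark the LTR bases at each end.
LTR at 103.83 Mb, left (chr2:103827931-103828010): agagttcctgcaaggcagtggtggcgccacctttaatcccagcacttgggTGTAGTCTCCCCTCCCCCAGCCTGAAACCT
LTR at 103.83 Mb, right (chr2:103828273-103828352): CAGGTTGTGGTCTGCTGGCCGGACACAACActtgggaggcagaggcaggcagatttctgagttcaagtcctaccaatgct
LTR at 129.09 Mb, left (chr2:129088303-129088382): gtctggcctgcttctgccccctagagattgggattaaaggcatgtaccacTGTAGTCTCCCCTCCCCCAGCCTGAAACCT
LTR at 129.09 Mb, right (chr2:129088645-129088724): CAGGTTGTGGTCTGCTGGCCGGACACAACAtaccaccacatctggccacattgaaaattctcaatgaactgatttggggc
The junctions were placed near the LTR matches by a search for ends TG and CA with the same 6 bases on both sides. That the last 6 bases before the left junction recur as the first 6 after the right one was thus required, not found. Both are single LTRs of 322 bp.

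By contrast, a 129-type locus is strong (at least 100 RPM) in at least 2 F1 or F2 libraries and stays below 10 RPM in every B6 library. The reference is B6, and no match to an LTR probe was found within 1000 bp of the 129-type loci at 159.05 and 161.87 Mb. The middle 120 bases of both regions are shown because these are the typed loci nearest to the deletion. Nothing is in capitals, since these letters hold no LTR end.
middle of the region at 159.05 Mb (chr2:159051487-159051606): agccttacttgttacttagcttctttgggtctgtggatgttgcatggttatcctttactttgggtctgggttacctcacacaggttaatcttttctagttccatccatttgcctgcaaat
middle of the region at 161.87 Mb (chr2:161874892-161875011): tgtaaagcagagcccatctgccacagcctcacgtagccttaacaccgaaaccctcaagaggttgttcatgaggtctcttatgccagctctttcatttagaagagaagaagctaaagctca

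Of the 261 loci, 133 reached 10 RPM in at least 1 Chr2-cl animal, 109 of them in all 8 and 24 in some. The other 128 were called in no Chr2-cl animal. Of these, 115 were called in a single library of the 87 and 13 in at least 2. By strain, 86 loci were fixed, which means at least 100 RPM in each of the 68 libraries outside the Chr2-cl line. Another 4 were B6-type, 4 were 129-type, and 167 fell into none of these classes, 39 of which were called in at least 1 Chr2-cl animal. No Chr2-cl value entered these 3 classes. No locus was line-only, a class that asks for at least 100 RPM in at least 2 Chr2-cl animals and less than 10 RPM in every other main library.

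On the other chromosomes 1697 loci were fixed, 92 B6-type, 87 129-type and 15 line-only. The classes took a like share of the loci on chromosome 2 and elsewhere, with 32.95% and 35.67% fixed, 1.53% and 1.93% B6-type, and 1.53% and 1.83% 129-type. A match to an LTR probe lay within 1000 bp of 119 chromosome 2 loci. These included all 86 fixed loci, but 4 of the 128 loci that no Chr2-cl animal had. Of the fixed loci 68 were intergenic, 14 lay in introns and 4 touched exons.

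Depth was between 699602 and 882817 ETn-paired reads in the Chr2-cl libraries, within the range of 525419 to 1046650 over all 87. A level of 10 RPM thus stands for 5.25 to 10.5 reads, depending on the library. A Chr2-cl library called 115 to 128 of the 261 loci (median 120), against 113 to 122 in B6 (median 116), 116 to 125 in F1 (median 122) and 116 to 145 in F2 (median 122). Chromosome 2 loci took 4.70 to 4.92% of the reads of a Chr2-cl library. At the threshold itself, the lowest chromosome 2 region to pass in any library had 10.0005 RPM from 8 reads in an F2 library (chr2:23782060-23782420). The highest region that did not pass had 9.99 RPM, also from 8 reads (chr2:15951121-15951488). Whether either lies in a locus called in another library was not checked.

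The fixed loci show how even the measurement is along the chromosome. Their mean level over the 8 Chr2-cl animals had a median of 490.0 RPM, from 151 to 1260 RPM. Relative to the B6 mean of the same locus, the median over the 86 loci was between 1.01 and 1.03 in every Chr2-cl animal, whatever its genotype. In single animals the 5th percentile of this ratio was 0.830 to 0.886 and the 95th percentile 1.10 to 1.13. Values below 0.5 were seen once in each WT animal and in no other. Both came from the locus at 56.13 Mb described below.

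No locus lay in the deleted interval. Of the 261 loci, 248 lie on its centromeric side and 13 on its distal side. The interval held 0 to 2 reads in the KO/KO libraries, 1 in the KO/WT library and 0 to 2 in the WT libraries. B6 libraries, which have both copies of the cluster, held 0 to 26 reads there with a median of 2. The 26 reads were in T2379, the library of lowest depth, and the other B6 libraries held at most 9. With 3 reads as the limit that a count of 0 allows, this is up to 3.40 RPM in WT animal C6736 and 3.56 RPM in KO/KO animal C6766. The reads therefore cannot tell a deleted from an intact cluster, and the genotype labels were not checked by them.

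The reference sequence of the interval is highly repeated. Words of 50 bases that occur once on chromosome 2 made up 11.7% of the interval against 93.4% of the rest. It contains 10 of the 219 segments of chromosome 2 that match an LTR probe, the best at 93.0% identity. Around these 10 the median share of unique words was 0%, against 94.9% around the segments elsewhere. Only uniquely mapped reads were counted by the authors, and whether reads from those segments were lost in this way was not tested.

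The nearest locus on the centromeric side, at chr2:174769830-174775482, ends less than 10 kb before the first guide site. It is fixed, and its level was 1072, 1079, 1051, 1059 and 1057 RPM in KO/KO, 1058 RPM in KO/WT, and 1051 and 1041 RPM in WT. The 3 genotypes differed by less than the spread of the B6 libraries (1055 ± 53.0 RPM, SD, n = 16). The next, at 174.37 Mb, is fixed as well and ran from 517 to 559 RPM in the 8 animals. The third, at 173.81 Mb, was called in 1 F2 library and held 0 reads in all 8.

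On the distal side, the fixed locus at 179.15 Mb held 472 to 527 RPM in the Chr2-cl animals, with overlap of all genotypes. The loci at 178.29 Mb and 179.51 Mb, the latter in an intron of the cell adhesion gene Cdh4, were called in 1 main F2 library each and held 0 reads in the Chr2-cl line. Within 20 Mb of the interval lay 41 loci, 10 of them fixed and 14 with enough reads in the Chr2-cl libraries to be tested. At none of the 3 fixed loci named here did KO/KO differ from WT by the test described next (adjusted p = 1 at each, edgeR).

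Which loci follow the deletion was asked by comparing KO/KO with WT animals by edgeR's quasi-likelihood test over all loci with at least 10 reads in at least 2 of the 8 libraries. Of 125 chromosome 2 loci tested, 4 (3.20%) passed an adjusted p of 0.05 by the Benjamini-Hochberg method, and all 4 were higher in KO/KO. Over the genome 0.299% of 2676 loci passed, and 0.262% passed with a higher level in KO/KO. The 4 loci lie at 51.35, 56.13, 159.05 and 161.87 Mb. The first pair is over 118 Mb from the deletion, and the second pair within 16 Mb of it. The loci of a pair are neighbours on the chromosome, and the animals are relatives. The 4 calls are therefore not independent, and the share of 3.20% counts neighbours separately.

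**Figure D1:**
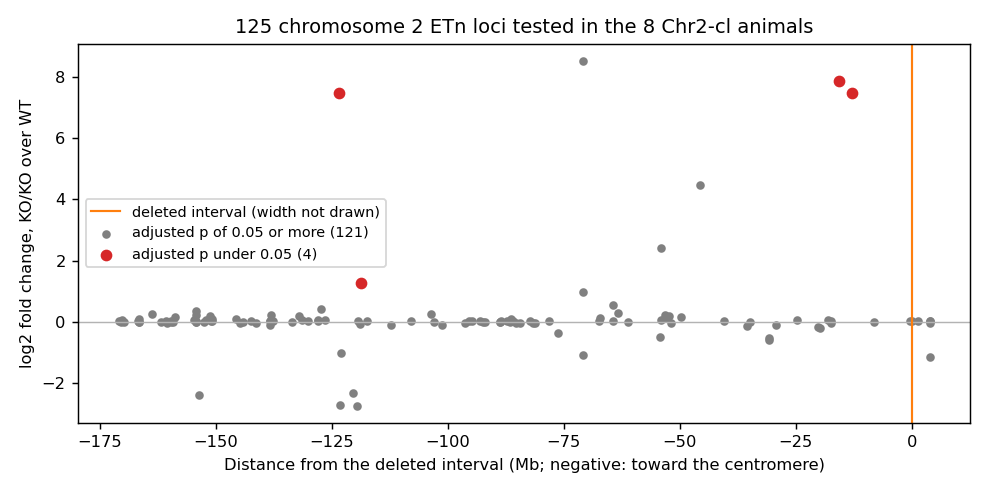
Log2 fold change of KO/KO over WT (vertical axis) against the distance in Mb from the deleted interval (horizontal axis, negative toward the centromere) for the 125 loci tested; red points passed an adjusted p of 0.05 (edgeR), grey points did not. Most loci sit close to 0 along the whole chromosome. The 4 red points form a pair near the interval and a pair more than 118 Mb from it, and grey points with large fold changes are loci that vary inside the KO/KO group.

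The locus at 159.05 Mb (chr2:159050440-159052652) is intergenic, 15.7 Mb from the deletion, and the nearest gene is Dhx35, a putative RNA helicase gene. Its level was 196, 145, 199, 141 and 203 RPM in the KO/KO animals, 146 RPM in the KO/WT animal, and 1.22 and 0 RPM in the WT animals. All KO/KO and KO/WT animals were high and both WT animals were at the level of 1 read or none, so the groups did not overlap. The ratio of KO/KO to WT reads, corrected for depth, was 301, with a 95% counting interval of 53.8 to 11901 (adjusted p = 0.0142, edgeR).

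The same locus was absent from every B6 library, the highest of which had 1.11 RPM. It was called in 10 of 13 F1 and 33 of 39 F2 libraries, with medians of 139 and 152 RPM. It is thus a locus that B6 lacks and that the crosses to 129X1/SvJ segregate, and in the Chr2-cl line it was found in the 6 animals with the deletion and in neither animal without it.

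The locus at 161.87 Mb (chr2:161873884-161876018) had the same distribution. It lies 12.9 Mb from the deletion in an intron of Ptprt, which encodes a receptor-type protein tyrosine phosphatase. The KO/KO animals had 264, 197, 257, 186 and 276 RPM, the KO/WT animal 181 RPM, and the WT animals 0 and 2.27 RPM. Again the 6 carriers of the deletion were high, both WT animals were low, and nothing lay between them. The ratio of KO/KO to WT reads was 201 (95% counting interval 55.5 to 1662), with an adjusted p of 0.0231 (edgeR). The highest B6 library had 1.90 RPM, while 6 of 13 F1 and 33 of 39 F2 libraries were called.

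**Figure D2:**
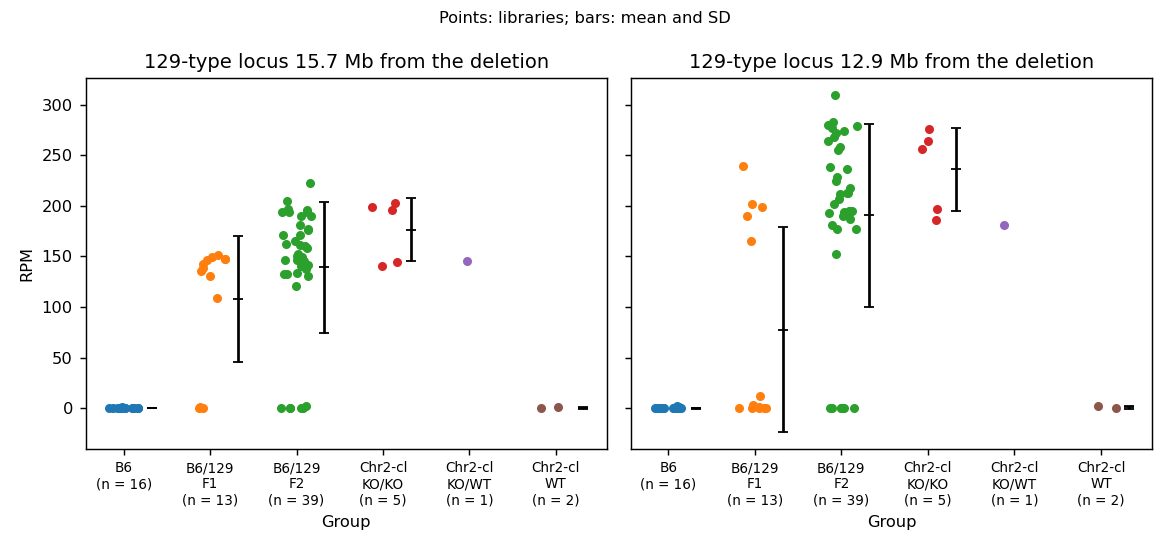
RPM (vertical axis) of the 129-type loci 15.7 Mb and 12.9 Mb from the deletion in each library (points) by group (horizontal axis), with the mean and SD as bars. B6 and Chr2-cl WT libraries lie at or near 0, F1 and F2 libraries fall into a group near 0 and a group above 100 RPM, and all 5 KO/KO animals and the KO/WT animal lie above 140 RPM.

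The locus at 51.35 Mb (chr2:51351563-51353848) lies far from the deletion, 123 Mb on the centromeric side, and the nearest gene is the bitter taste receptor gene Tas2r134. Its level was 254, 192, 243, 234 and 267 RPM in KO/KO, 196 RPM in KO/WT, and 1.22 and 1.13 RPM in WT. The groups did not overlap. The ratio of reads was 203 (95% counting interval 56.1 to 1680; adjusted p = 2.87e-05, edgeR). All 16 B6 libraries called it (median 241 RPM), as did 11 of 13 F1 and 9 of 39 F2 libraries, so it was present in B6 and often missing after crosses to 129X1/SvJ. One B6 library, T2379, had 78.0 RPM, which kept the locus out of the B6-type class as defined above.

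The locus at 56.13 Mb (chr2:56129597-56132010) is fixed and differed in level, not in presence. It had 536, 453, 567, 519 and 569.6 RPM in KO/KO, 459 RPM in KO/WT, and 205 and 237 RPM in WT. Every KO/KO and KO/WT animal was above both WT animals. The log2 fold change was 1.26 ± 0.11 (SE; adjusted p = 0.0127, edgeR), a ratio of reads of 2.40 (95% counting interval 2.15 to 2.68). The B6 libraries had 503 ± 44.8 RPM (SD, n = 16), near the KO/KO level of 529 ± 47.5 (SD, n = 5), and the F2 libraries had a median of 215 RPM, near the WT level. The nearest gene is Kcnj3, a potassium channel gene, 679 kb away.

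The locus at 51.35 Mb passed the threshold whichever animal was left out and in ear libraries alone. The calls at 56.13, 159.05 and 161.87 Mb were lost without KO/KO animal C6771, C6735 or C6766 (adjusted p of 0.0555 to 0.0997, edgeR) and in ear libraries alone (0.204, 0.221 and 0.309). Those at 159.05 and 161.87 Mb were also lost without KO/KO animal C6768, and that at 56.13 Mb without WT animal C6774. Neither the sign nor the separation of the groups depends on the animal left out, since no value of one group reaches into the other. With 2 WT animals of 1 mating, loci that were passed to the WT animals by chance and loci linked to the deletion cannot be told apart.

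Presence and absence gave a like count. At 3 of the 125 loci (51.35, 159.05 and 161.87 Mb) all KO/KO and KO/WT animals were called and no WT animal was, against 0.149% of all 2676 loci, or 4, and the remaining one lies on another chromosome. The reverse, a call in both WT animals and in no KO/KO animal, was found at 1 chromosome 2 locus, at 181.67 Mb, and at 0.0374% of all loci. That is a region of 97 bp at a low level, with 0, 8.96, 9.64, 8.30 and 0 RPM in KO/KO, 15.4 RPM in KO/WT and 12.2 and 12.5 RPM in WT. It was read in no other library, and 3 KO/KO animals held reads just under the call. The values of KO/KO and WT did not overlap at 23 of the 125 loci, against 8.26% of all loci tested. Neighbouring loci in these relatives are not independent, so these are not counts of independent events.

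A trend with the number of deleted alleles (0, 1 or 2), fitted over the 8 animals, passed the threshold at 0 of 125 chromosome 2 loci and at 0 of 2676 in all (0% by edgeR's quasi-likelihood test). At an unadjusted p under 0.05 there were 10 on chromosome 2 and 68 in all (2.54%). DESeq2 called 4 on chromosome 2 and 10 in all. Without the lone KO/WT animal C6734, the trend is the same contrast as KO/KO against WT. Then 4 loci on chromosome 2 passed by edgeR, and 8 of 2662 in all.

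The level of the KO/WT animal relative to KO/KO was then set beside the number of copies. As a reference, the level of a 129-type locus was divided by the 90th percentile of the F2 libraries at that locus. The mean over both 129-type loci within 20 Mb of the deletion was 0.879 ± 0.154 in KO/KO (SD, n = 5), 0.701 in the KO/WT animal and 0.00361 in WT (n = 2). No B6-type locus lies within 20 Mb. The KO/KO animals fell into a higher and a lower set. C6771, C6735 and C6768 had 0.980, 0.973 and 1.02, while C6773 had 0.727 and C6766 had 0.698. The KO/WT animal was therefore inside the range of the KO/KO animals.

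A scale for loci present on 1 of 2 chromosomes was sought in the first cross. The 2 Chr4-cl KO/WT animals of the F1 group, T3913 and T3921, had medians of 0.729 and 0.752 of the B6 mean over the 96 B6-type loci of the genome, and 1.01 over the 1783 fixed loci in both. They called 94 and 87 of the 96. A first cross carries most such loci on 1 of 2 chromosomes, and the level lay above 0.5, with duplicate reads removed by the authors before counting. The choice of these animals as a scale was made after their values were seen. At 159.05 and 161.87 Mb the lower set of KO/KO animals and the KO/WT animal lay close to the level of T3913 and T3921, and the higher set close to 1.

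**Figure D3:**
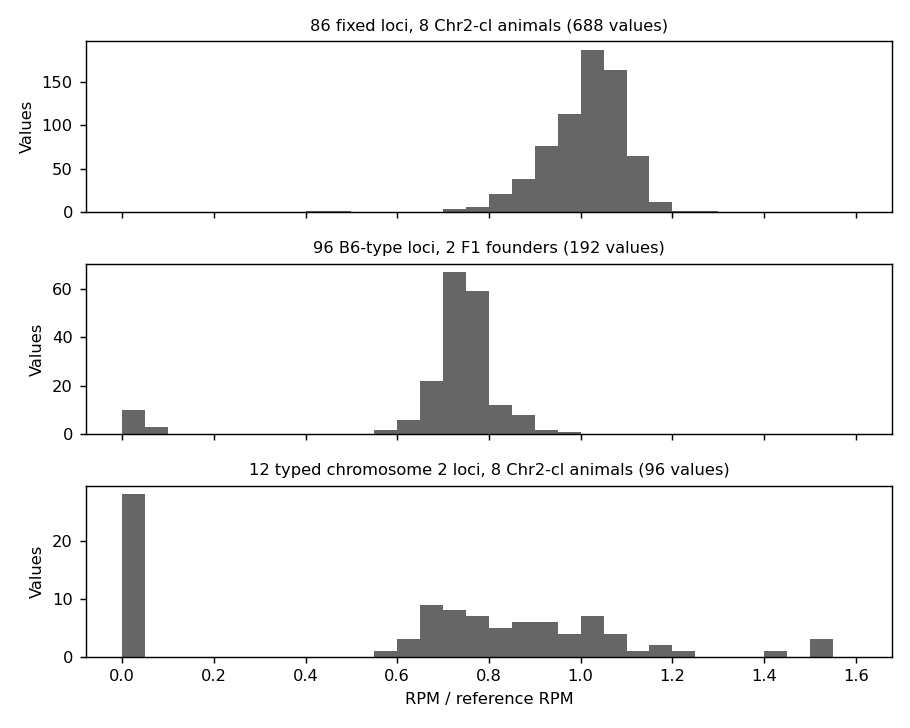
Number of values (vertical axes) by RPM over the reference RPM of the locus (horizontal axis) for the 86 fixed loci in the 8 Chr2-cl animals, for the 96 B6-type loci in F1 animals T3913 and T3921, and for 12 chromosome 2 loci in the 8 Chr2-cl animals. The 12 are B6-type or 129-type with up to 2 B6 libraries allowed to break the class rule, a choice made after seeing the data. Fixed loci centre near 1, B6-type loci of the F1 animals near 0.75 with a few near 0, and the 12 loci have a group at 0 and a broad group from 0.5 upward, with no value between 0.1 and 0.5.

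The Chr2-cl animals differed from each other at further places along the chromosome, also within the KO/KO group. In all, 13 loci, those at 51.35, 159.05 and 161.87 Mb among them, reached 100 RPM in at least 1 Chr2-cl animal while the lowest animal had at most 0.1 of the highest. This set was chosen after the values were seen and gets no test. The same count was not made on the other chromosomes, so it does not show whether chromosome 2 varies more than they do. Of these 13, 2 lie within 20 Mb of the deletion, and 6 have an LTR match in the reference. Presence is given by animal below, from the centromere toward the deletion.

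The loci at 21.14 and 54.38 Mb shared a pattern. At 21.14 Mb, 5.80 kb from the threonine synthase-like gene Thnsl1, the level was 0, 283, 1.205, 0 and 0 RPM in KO/KO, 271 RPM in KO/WT and 304 and 304 RPM in WT. At 54.38 Mb, in an intron of the glycosyltransferase gene Galnt13, it was 0, 284, 0, 0 and 0 RPM in KO/KO, 283 RPM in KO/WT and 289 and 287 RPM in WT. C6773 was the sole KO/KO animal with these loci and lay just below the WT animals. The ranges did not overlap, but neither locus passed the test (adjusted p = 1 at both, edgeR).

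Neither locus held more than 1.38 RPM in any F1 or F2 library. Among B6 libraries 1, T2682, a spleen library of a Chr4-cl KO/KO mouse, had 301 and 299.8 RPM, and the median of the 16 was 0. With T2682 allowed as an exception they would count as line-only loci. At the same 4 loci of this stretch, 21.14, 51.58, 54.38 and 55.26 Mb, T2682 was the B6 library that was strong, which sets it apart from the other 15 on this chromosome. The reason was not tested.

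Between them, the loci at 51.58 Mb and 55.26 Mb had the same order of animals. At 51.58 Mb the KO/KO animals had 2.86, 183, 2.41, 0 and 0 RPM, the KO/WT animal 184 RPM and the WT animals 248 and 253 RPM. At 55.26 Mb, 29.7 kb from Kcnj3, the KO/KO animals had 4.29, 215, 0, 0 and 1.15 RPM, the KO/WT animal 231 RPM and the WT animals 298 and 299 RPM. In both, C6773 and the KO/WT animal lay below the WT animals and the other 4 KO/KO animals were near 0. All 39 F2 and 10 of 13 F1 libraries called each locus, and T2682 was the single B6 library that did (208 and 226 RPM).

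The locus at 51.35 Mb is the mirror image of its neighbour at 51.58 Mb, 225 kb away. Relative to the reference, C6773 had 0.840 and 0.660 and the KO/WT animal 0.856 and 0.662 at the B6-like and the 129-like locus. The other 4 KO/KO animals had 1.02 to 1.17 at the first and at most 0.0103 at the second. The WT animals had at most 0.00533 at the first and 0.895 and 0.910 at the second. So each animal had the first locus, the second or both at a reduced level.

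Further pairs of neighbours of opposite type were found at 103.83 and 120.48 Mb, and like the first they were picked after their values were seen. At 103.83 Mb, in an intron of 4931422A03Rik, the KO/KO animals had 389, 275, 306, 389 and 1.15 RPM, the KO/WT animal 276 RPM and the WT animals 0 and 1.13 RPM. At the 129-type locus at 103.96 Mb, 129 kb on and 2.10 kb from the complement regulator gene Cd59a, they had 0, 61.4, 68.7, 0 and 80.2 RPM, 68.7 RPM, and 90.1 and 89.5 RPM. C6771 and C6766 had the B6-type locus alone, C6768 and both WT animals the 129-type locus alone, and C6773, C6735 and the KO/WT animal had both.

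At 120.48 Mb, in an intron of the kinesin-like gene Stard9, the 129-type locus had 116, 111, 186, 0 and 175 RPM in KO/KO, 126 RPM in KO/WT and 155 and 179 RPM in WT. At 120.62 Mb, 138 kb on and in an intron of Cdan1, a gene mutated in a congenital anaemia, they had 532, 541, 60.2, 739.7 and 52.7 RPM, 565 RPM, and 68.2 and 75.9 RPM. The second locus, with a B6 mean of 808 RPM, was never lost. It holds 3 LTR segments in 7320 bp, and its low level was 0.0653 to 0.0940 of the B6 mean. C6766 had the higher-in-B6 locus alone, and C6735, C6768 and both WT animals the 129-type locus with the low level of the other. Over the 3 pairs, the sum of both ratios in an animal ran from 0.816 to 1.52.

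**Figure D4:**
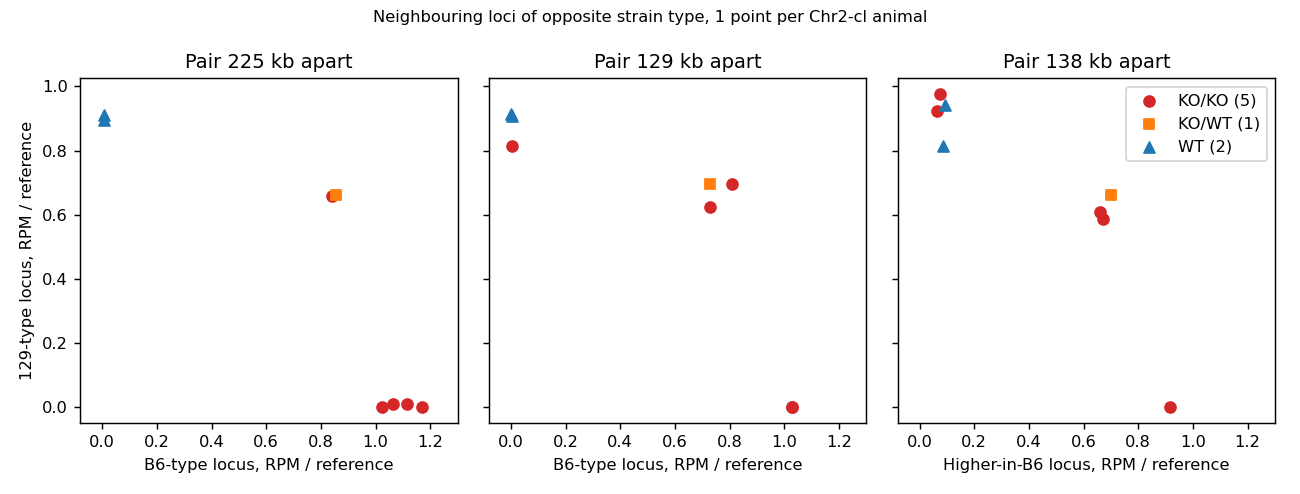
RPM over the reference RPM at the 129-type locus (vertical axes) against that of the neighbouring locus present or higher in B6 (horizontal axes), 1 point per Chr2-cl animal, for pairs 225, 129 and 138 kb apart (left to right). Animals lie near one axis or the other or at about 0.6 to 0.9 on both, and no animal is near 0 on both.

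Closer to the deletion, the B6-type loci at 129.09 Mb and at 143.97 to 143.98 Mb varied too. At 129.09 Mb, near the mitotic spindle gene Ckap2l, the KO/KO animals had 336, 329, 12.05, 439.8 and 10.3 RPM, the KO/WT animal 314 RPM and the WT animals 9.74 and 10.2 RPM. KO/KO animals C6735 and C6768 lay just above the WT animals, and the other 3 KO/KO animals and the KO/WT animal were high. At 143.97 Mb the values were 179, 179, 0, 225 and 1.15 RPM in KO/KO, 164 RPM in KO/WT and 180.2 and 179 RPM in WT. Here C6735 and C6768 alone were near 0 and both WT animals were high.

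The neighbouring locus, counted apart at 143.98 Mb, had 194, 198, 6.02, 244 and 6.88 RPM in KO/KO, 171 RPM in KO/WT and 202 and 178 RPM in WT. The same animals were high and low at both loci. Relative to B6, the first locus was 0.698 to 0.961 and the second 0.742 to 1.06 in the animals that were high. These 2 loci are the sole B6-type loci within 40 Mb of the deletion. Whether they are the 2 flanks of 1 element was not tested, so they need not be independent. Their mean ratio was 0.532 ± 0.479 in KO/KO (SD, n = 5), 0.720 in KO/WT and 0.796 ± 0.0391 in WT (n = 2). The KO/WT and WT values lay inside the range of the KO/KO animals, in which C6735 and C6768 were near 0.

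The loci read in order show how each animal changed along the chromosome. WT animals C6774 and C6736 had and lacked the same loci among the 15 plotted. KO/KO animal C6773 and KO/WT animal C6734 did so as well. Both had 0.586 to 0.862 of the reference at each 129-type and B6-type locus from 51.35 Mb on. At the loci plotted as line-only, the reference is the highest Chr2-cl animal, so the scale differs. At 54.38 Mb C6773 and C6734 had 0.985 and 0.982, and WT animals C6774 and C6736 had 1 and 0.993. At 21.14 Mb the values were 0.929 and 0.892, against 1 and 0.997 in WT. A lower level was thus not seen at 54.38 Mb, and the reason was not tested. C6735 and C6768 lost the B6-type loci at 129.09 and 143.97 Mb and had both 129-type loci nearest to the deletion at 0.925 to 1.04 of the reference. C6766 had the B6-type loci from 51.35 to 143.98 Mb at 0.961 to 1.06 and the 129-type loci beyond them at 0.671 and 0.725.

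**Figure D5:**
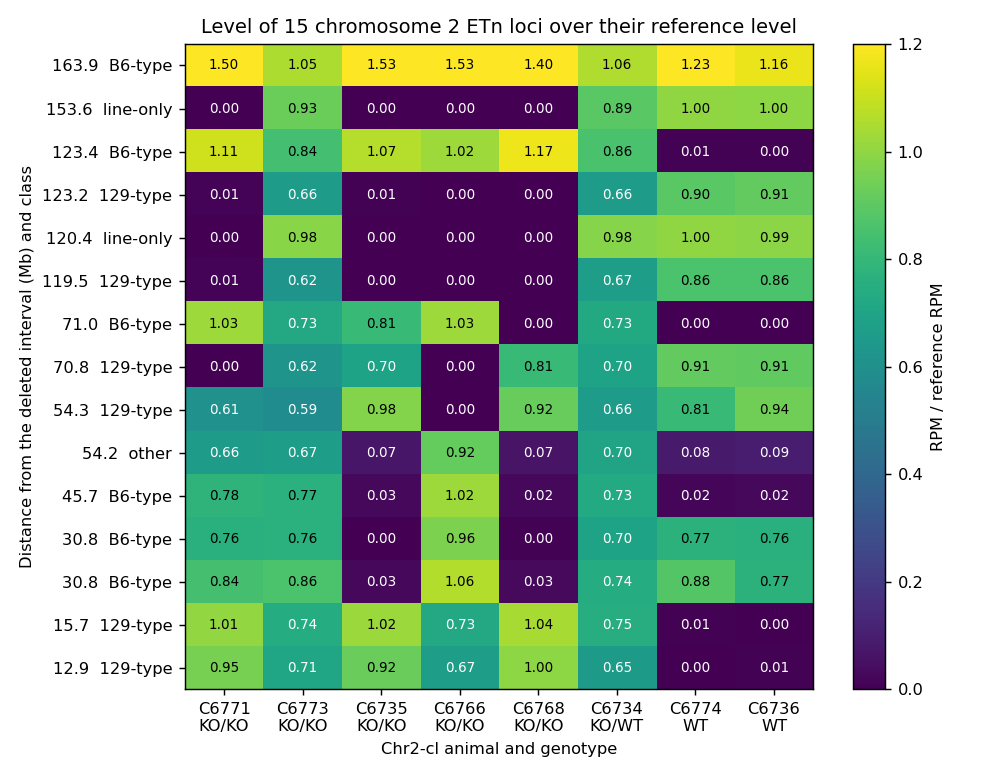
RPM over the reference RPM (colour and printed value) of 15 chromosome 2 loci, ordered from the centromere (top) to the deletion (bottom) and named by distance in Mb and class with up to 2 B6 libraries excepted, in the 8 Chr2-cl animals (columns). The reference is the B6 mean for B6-type and the locus 54.2 Mb away, the 90th percentile of F2 for 129-type, and the highest Chr2-cl animal for line-only loci. In the bottom pair, and at the B6-type locus 123.4 Mb away, the deletion carriers are high and both WT animals are at 0.01 or less.

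In the plot, 12 loci are B6-type or 129-type with up to 2 B6 libraries excepted. Over these 12, with 8 values each, 28 of 96 values lay below 0.1 of the reference and 0 between 0.1 and 0.5. Another 1 lay between 0.5 and 0.6, 32 between 0.6 and 0.85, 6 between 0.85 and 0.9, and 29 at 0.9 or more. Loss was thus sharp, while the lower and the higher levels above it graded into each other, and a single value near 0.85 does not tell 1 copy from 2. The locus at 10.93 Mb shows the limit of this reading. Its B6 level varies (309 ± 139 RPM, SD, n = 16, with T09693 and T09695 below 10 RPM), and its ratio of 1.05 to 1.53 in the Chr2-cl line rests on that mean.

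Strain origin over the chromosome was compared by a fit over the 76 main libraries (1 per animal or cell line) with 4 groups, the 8 Chr2-cl animals among them. The comparisons with B6, F1 and F2 share the Chr2-cl libraries and are not independent of each other. Against B6, 38 of 136 chromosome 2 loci tested passed an adjusted p of 0.05 (edgeR, Benjamini-Hochberg), against 24.2% of 3010 loci in the genome. Of these 24 were higher in Chr2-cl (12.7% of all loci) and 14 lower (11.5%). Most of the 38 changes were small. The fold change exceeded 1 on the log2 scale at 12 loci, and 23 were fixed loci with log2 values from -0.29 to 0.19.

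The 4 loci with the lowest adjusted p against B6 were the 129-type loci. At 120.48 Mb the Chr2-cl animals had 131 ± 60.5 RPM (SD, n = 8) and the B6 libraries at most 1.23 RPM (adjusted p = 2.33e-25, edgeR). At 103.96 Mb the mean was 57.3 ± 36.8 RPM against a B6 maximum of 2.48 RPM (adjusted p = 8.85e-16, edgeR). The loci at 159.05 Mb (129 ± 83.2 RPM; adjusted p = 1.63e-12, edgeR) and 161.87 Mb (171 ± 111 RPM; adjusted p = 5.06e-10, edgeR) followed. The class rule asks for a low level in B6, so for these 4 loci the B6 side of the difference was set by it, while the Chr2-cl level was not. Each of the 4 had at least 1 Chr2-cl animal at 0.

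Among lower loci, that at 120.62 Mb stood at 329 ± 291 RPM (SD, n = 8) against 808 ± 139 in B6 (n = 16; log2 fold change -1.32, adjusted p = 0.0467, edgeR). The locus at 151.88 Mb, 25.5 kb from the transcription factor gene Scrt2 and 22.9 Mb from the deletion, is the one strong locus of the main libraries that the Chr2-cl line lacked. It had 0 RPM in 7 Chr2-cl animals and 1.15 RPM in C6768, 0 RPM in all F2 libraries, and was strong in 6 of 13 F1 libraries and in B6 library T09655 (311 RPM). Its adjusted p of 0.0495 against B6 rests on that 1 B6 library, since the B6 median was 0.

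Against F1, 7 of 136 loci passed (4 higher, 3 lower), where 7.71% of all loci did (3.42% higher and 4.29% lower). The loci at 21.14 and 54.38 Mb had the lowest adjusted p (2.43e-08 and 3.10e-08, edgeR), and that at 181.67 Mb was also higher. Lower were the loci at 151.88 Mb and at 98.60 Mb. The latter is a region of 62 bp with no read in the Chr2-cl line, 8.43 ± 3.24 RPM in F1 (SD, n = 13) and 9.36 ± 3.98 RPM in F2 (n = 39), a level of a few reads. Another 2 were fixed loci that moved by -0.21 and 0.11 on the log2 scale.

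Against F2, 13 of 136 loci passed (8 higher, 5 lower), against 13.9% of all loci (8.64% higher and 5.25% lower). Scaling by library totals alone, without TMM factors, gave 26, of which 8 were higher, and 539 of 3010 in all. The split by direction therefore depends on the scaling. Besides 21.14 and 54.38 Mb (adjusted p of 2.40e-16 and 3.51e-16, edgeR), the locus at 129.09 Mb was higher, with 183 ± 188 RPM in Chr2-cl (SD, n = 8) against 8.12 ± 4.77 in F2 (n = 39; log2 fold change 4.48 ± 0.40 (SE), adjusted p = 3.71e-16, edgeR). No F2 library exceeded 19.8 RPM there. The locus at 10.93 Mb, 162 kb from Prkcq, a protein kinase C gene of T cells, was higher by 2.08 ± 0.69 (log2, SE; adjusted p = 0.0264, edgeR), with 325 to 474 RPM in all 8 Chr2-cl animals and a call in 12 of 39 F2 libraries. The fixed loci at 42.58 Mb (0.72 ± 0.14) and 56.13 Mb (0.76 ± 0.16) were higher as well.

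The share of chromosome 2 loci that passed was 27.9% against B6, 5.15% against F1 and 9.56% against F2, near the 24.2% of all loci for B6 and below the 7.71% and 13.9% for F1 and F2. In KO/KO against WT, chromosome 2 gave 4 of the 8 calls from 125 of the 2676 loci tested, and neighbours among the 4 are not independent. With the KO/KO animals alone in place of the whole line, 14, 4 and 8 of 132 chromosome 2 loci passed. Over the genome 384, 165 and 334 of 2926 did. In ear libraries alone 16, 3 and 6 of 127 chromosome 2 loci passed, against 238, 161 and 274 of 2797.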

How the data were processed

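The deposited values are raw counts of ETn-paired reads per region, in 1 file per library, not normalized and not pooled. The authors used Bowtie to map each mate to mm9 on its own, SAMtools to drop duplicate reads, and bedtools to join, within 1000 bp, the uniquely mapped reads whose mate overlapped an ETn repeat (versions not given in the sources used here). Removal of duplicates can compress high counts, and reads in repeated sequence are not counted.

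Counts were divided by the library total and multiplied by 1e6 (RPM). Regions of at least 10 RPM in any library were joined within 1000 bp, and the members are all loci on chromosome 2. The 76 main libraries (1 per animal or cell line) entered the comparisons, and the other 11, repeat libraries and further tissues of F2 animals, helped to define loci alone. Counts per locus over the whole genome were tested with edgeR 4.0.16 (quasi-likelihood, TMM, at least 10 reads in at least 2 fitted libraries, R 4.3.3), with Benjamini-Hochberg adjustment over all loci tested and a threshold of 0.05. DESeq2 1.42.0 was an alternative. The alternatives also covered call thresholds of 5 and 20 RPM, joining by overlap or within 5000 bp, no TMM, no filter on low counts, ear libraries alone, and leaving out each Chr2-cl animal. The comparisons between lines were also run without B6 library T2379 and F2 library C5733.

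The tests were checked on simulated counts with known changes. Folds of 0.25, 0.5, 2 and 4 were called at 98 to 100% of loci. Unchanged loci were called at 0.572% in KO/KO against WT and 0.654% in Chr2-cl against B6. The simulated spread was 1 common value from loci present in every library. Loci with few reads on average were left out, so these simulations tested 2472 and 2492 loci. The check therefore does not cover weak loci, or loci that some animals of a group have and others lack. LTR segments were matches of the study's 1274 probes (blastn 2.17.0, word size 11, e-value 1e-05, coverage of at least 80%). Genome and genes are NCBIM37, the assembly of mm9. Guide sequences came from the study's supplementary files and were found on chromosome 2 by exact search, and the other chromosomes were not searched. Counting intervals are exact 95% intervals on the ratio of read sums. They cover counting error only, since reads carry no molecular identifiers.

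Named loci are those in the interval, the 3 nearest on each side, the up to 20 with the lowest adjusted p in KO/KO against WT, and the 12 nearest of each strain class. Loci variable in the line, neighbouring pairs and the lowest adjusted p against other lines were added after their values were seen. The members, classes and rules were chosen with earlier results of these data known.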

Additional observations from a re-analysis of the deposited data

Results flagged for a closer look

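In the KO/KO group of 5 animals, 16 chromosome 2 loci were examined for an animal whose gap to the nearest other exceeded 0.71 of the range (Dixon's critical value), and 5 stood out. For normally spread values chance marks about 1 in 20 such groups, but that rate does not apply here. A locus that 1 of the 5 animals has and the others lack exceeds the limit by presence alone. This holds for the 4 loci at which the marked animal was high, so the count of 5 cannot be set against that rate. All 5 concern animal C6773, and the loci lie between 10.93 and 55.26 Mb, so they are not independent of each other.

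At 21.14 Mb C6773 had 283 RPM and the other KO/KO animals 0 to 1.205 RPM. At 51.58 Mb it had 183 RPM against 0 to 2.86 RPM, at 54.38 Mb 284 RPM against 0, and at 55.26 Mb 215 RPM against 0 to 4.29 RPM. At 10.93 Mb it was the lowest, with 325 RPM against 434.3 to 474.1 RPM. The KO/WT animal C6734 had nearly the same values at these 5 loci (271, 184, 283, 231 and 327 RPM). The cause was not tested.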

How the results depend on the processing

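The 4 loci called in KO/KO against WT were called with library totals alone, no filter, 5 or 20 RPM and either joining rule. DESeq2 called 5, and 14 of 2676 in all. Ear libraries alone gave 1 (3 of 2652 in all). Leaving out 1 KO/KO animal gave 1 to 6 (2 to 22 in all). For the trend, DESeq2 gave 4 (10 of 2676 in all). Leaving out KO/WT animal C6734 gave 4 (8 of 2662 in all), and leaving out any KO/KO animal gave 0. Ear libraries alone gave 16 (B6), 3 (F1) and 6 (F2), KO/KO animals alone 14, 4 and 8, and library totals alone 26 for F2. Over all loci these were 238, 161 and 274 of 2797, 384, 165 and 334 of 2926, and 539 of 3010. With fewer animals the tests have less power. Without B6 library T2379 and F2 library C5733, 35 (B6), 9 (F1) and 16 (F2) passed. Over all loci 660, 271 and 495 of 2900 did. Without the B6 library T2682, an alternative chosen after seeing the data, 38 passed against B6, and 726 of 3007 in all.

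At 5 RPM there were 518 chromosome 2 loci, 1 of them in the deleted interval, and at 20 RPM 167. A strong level of 200 RPM left 1 B6-type and 2 129-type loci. With at most 2 B6 libraries excepted, also chosen after seeing the data, 7 met the 129-type rule and 2 were line-only (21.14 and 54.38 Mb). Of the 7, the locus at 151.88 Mb met the rule through 6 F1 libraries. It had 0 RPM in every F2 library and was strong in 1 B6 library, so its class name does not give a strain origin. For the loci named in the text, 551 comparisons with an alternative kept direction and call, 15 lost the call, 10 gained it and 0 reversed. For a locus not called in the main fit, a kept call means that it stayed uncalled. The calls at 56.13, 159.05 and 161.87 Mb were among those lost, in ear libraries alone and without C6771, C6735 or C6766. No dosage value moved by more than its spread, and none could be had within 10 Mb, where no typed locus lies.

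No paired analysis was possible because no label ties an animal of 1 genotype to one of another. Limits are the 2 WT animals and 1 KO/WT animal of 1 mating, the unsequenced parents, and genotype labels that these reads cannot check.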

Other observations

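The region at 98.51 Mb, which touches an exon of Gm10800, varied without regard to group. The KO/KO animals had 28.6, 44.8, 30.1, 49.8 and 0 RPM, the KO/WT animal 0 RPM and the WT animals 52.4 and 27.2 RPM. In the other lines 14 of 16 B6, 7 of 13 F1 and 27 of 39 F2 libraries called it, with 0 as the lowest value in each. No LTR match lies within 1000 bp.

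The fixed locus at chr2:20421514-20423416 was lower in the Chr2-cl line than in F1 and F2, with 189.6 to 286 RPM against 263 to 299.9 and 244 to 304 RPM. The ranges overlapped, and the log2 fold change was -0.21 ± 0.05 (SE) against F1 and -0.21 ± 0.04 against F2. The lowest 2 Chr2-cl animals there were the KO/WT animal C6734 and KO/KO animal C6773 (189.6 and 209 RPM).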
